A study of Mus musculus with 6 samples.

Results

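The 8 genes described here are pseudogenes on mouse chromosomes 1 and 2 whose sequences are copies of mitochondrial protein-coding genes. They were taken by name (Gm28439, Gm13341, Gm13340, Gm28437, Gm28438, Gm28661, Gm29216 and Gm10925) from a table of 56674 rows of read counts, and all 8 were present, each on 1 row. Counts came from liver RNA of male C57BL/6 mice kept for 71 weeks on chow containing PE-MP (polyethylene microplastic, 3 libraries) or on normal chow (3 libraries). Libraries were made from poly(A)-selected RNA with a directional kit, and no dose, cage or batch stands in the labels, nor whether each library was a different animal. The members were chosen with the difference between the chows already known, so their levels by chow are given as a description without a test.

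Nuclear copies of mitochondrial DNA arise when pieces of the mitochondrial chromosome are inserted into a nuclear chromosome. They lie outside the mitochondrial promoters and fall under another genetic code, that of nuclear genes. There the codon TGA means stop, whereas in mitochondria it means tryptophan. The mitochondrial genes that they copy code for subunits of cytochrome c oxidase (mt-Co1, mt-Co2 and mt-Co3), of the ATP synthase (mt-Atp6) and of complex I (mt-Nd3 and mt-Nd4), which in hepatocytes feed oxidative phosphorylation. Where a copy and its mitochondrial gene have the same letters, a short read cannot be assigned to one of them by its sequence. How the submitters' counting treated such reads is not given in the sources used here, so counts on the copies are counts assigned to them and not a measure of transcription from chromosomes 1 and 2.

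Each copy was aligned to the mitochondrial gene with which it shared most bases, here called its counterpart, using the transcript sequences of GENCODE M21. That annotation belongs to build GRCm38, whereas the counts were made on GRCm39, so gene order and lengths are given and coordinates are not. The copies fell into a chromosome 1 run and a chromosome 2 run. On chromosome 1, Gm29216, Gm28661, Gm10925, Gm28437, Gm28438 and Gm28439 lay on the minus strand within 4663 bases, in the same order as mt-Co1, mt-Co2, mt-Atp6, mt-Co3, mt-Nd3 and mt-Nd4 on the mitochondrial chromosome. Between annotated ends, 140 bases separated Gm29216 from Gm28661 as they did mt-Co1 from mt-Co2, and 233 bases separated Gm28661 from Gm10925, where mt-Co2 and mt-Atp6 are 230 apart. Gm28437 and Gm28438 lay 69 bases apart, and mt-Co3 and mt-Nd3 68. On chromosome 2, Gm13340 (a copy of mt-Co1) and Gm13341 (a copy of mt-Co2) lay on the minus strand, again 140 bases apart, within the span of Myo3a, a myosin gene annotated there. Myo3a itself had 0 counts in all 6 libraries.

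The copies of the chromosome 1 run were nearly the same as their counterparts, and those of the chromosome 2 run were diverged. Gm10925 (678 bases), Gm28437 (783 bases), Gm28661 (681 bases) and Gm28439 (876 bases) had no mismatch, and Gm28439 matched bases 1 to 876 of the 1378 bases of mt-Nd4. Gm28438 (345 bases) had 1 mismatch with mt-Nd3, T3C, and Gm29216 had 1 mismatch in 483 aligned bases of mt-Co1, A1066T. In these tokens the mitochondrial base comes first, the position is counted from 1 at the 5′ end of the mitochondrial gene, and the base of the copy comes last. Gm13340 had 37 mismatches in 1545 bases (97.6% identity), and Gm13341 had 16 mismatches and a gap of 12 bases, at positions 433 to 444 of mt-Co2 (95.9% identity). Of these substitutions, 31 of 37 in Gm13340 and 14 of 16 in Gm13341 were at the codon's last position, and 33 and 13 were transitions.

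The stretches that follow show what a read could and could not tell apart. Each set gives the same 120 bases of a mitochondrial gene, its chromosome 1 copy and its chromosome 2 copy, 5′ to 3′, in lower case, with the letters of a copy that differ from the mitochondrial gene in capitals; each stretch was chosen as the one with most differences in the chromosome 2 copy, within the bases that all 3 share and outside the gap of Gm13341. Bases 1174 to 1293 of mt-Co1 held 0 differences in Gm29216 and 6 in Gm13340.
mt-Co1: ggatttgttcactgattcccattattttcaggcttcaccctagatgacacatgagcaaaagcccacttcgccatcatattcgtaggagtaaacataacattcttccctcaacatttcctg
Gm29216: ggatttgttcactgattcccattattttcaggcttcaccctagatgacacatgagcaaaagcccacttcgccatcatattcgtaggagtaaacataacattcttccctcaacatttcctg
Gm13340: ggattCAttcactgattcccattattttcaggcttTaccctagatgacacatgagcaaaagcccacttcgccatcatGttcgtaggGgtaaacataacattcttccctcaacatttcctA
Bases 445 to 564 of mt-Co2, just past the gap of Gm13341, held 0 differences in Gm28661 and 7 in Gm13341.
mt-Co2: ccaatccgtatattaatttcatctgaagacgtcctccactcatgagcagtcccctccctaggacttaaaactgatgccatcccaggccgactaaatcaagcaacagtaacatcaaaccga
Gm28661: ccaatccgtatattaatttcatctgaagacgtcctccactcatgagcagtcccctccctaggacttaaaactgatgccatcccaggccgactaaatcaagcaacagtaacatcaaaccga
Gm13341: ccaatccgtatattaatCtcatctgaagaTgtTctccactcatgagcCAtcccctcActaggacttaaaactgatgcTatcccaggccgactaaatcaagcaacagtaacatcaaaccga
The single difference of Gm28438 lies at the start of mt-Nd3, of which bases 1 to 60 are shown.
mt-Nd3: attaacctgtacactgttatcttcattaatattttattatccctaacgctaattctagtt
Gm28438: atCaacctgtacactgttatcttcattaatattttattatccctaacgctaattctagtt
Gm28439 has the letters of mt-Nd4 from the start codon on, as its first 90 bases show.
mt-Nd4: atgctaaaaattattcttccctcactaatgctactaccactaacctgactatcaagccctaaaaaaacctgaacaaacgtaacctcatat
Gm28439: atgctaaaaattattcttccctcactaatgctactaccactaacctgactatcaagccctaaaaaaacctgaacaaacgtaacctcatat

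Counted over all stretches of 100 bases, the share found letter for letter in a mitochondrial transcript was 100% for Gm10925, Gm28437, Gm28439 and Gm28661, 98.8% for Gm28438 and 96.7% for Gm29216. It was 5.53% for Gm13340 and 15.4% for Gm13341. With 50 bases these last shares were 27.5% and 36.0%, and with 150 bases 0% and 4.59%. The length of the sequenced reads is not given in the sources used here. All 8 copies carried in-frame TGA codons, from 3 in Gm10925 and 4 in Gm28438 to 12 in Gm28437 and 18 in Gm13340, so none is an open frame under the nuclear code.

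Total counts were 75176645 to 91898953 in the PE-MP chow libraries and 68357478 to 112566641 in the normal chow libraries. Hepatocyte markers (6 genes, Alb among them) summed to 80232 to 82659 CPM of total counts under PE-MP chow and 53818 to 74290 under normal chow, and 3 of the 6 did not overlap between chows. The sums of the lists for Kupffer cells (119 to 186.5 against 66.6 to 88.9; 5 of 5 genes not overlapping), sinusoidal endothelium (89.1 to 114 against 56.2 to 73.1; 3 of 5), neutrophils (2.05 to 2.26 against 0.640 to 0.843; 3 of 4) and RNAs retained in the nucleus (503 to 771 against 161 to 447; 5 of 7) were also higher in every PE-MP chow library than in any normal chow library. All these genes that did not overlap were higher under PE-MP chow, as were 34.6% of all genes tested on the same scale of total counts. Those for cholangiocytes, stellate cells, adipocytes, lymphocytes and pancreas overlapped, with Lep, Prss2, Cpa1 and Amy2a5 at 0 counts in all libraries. Within these lists, 1 of 5 cholangiocyte genes was higher under PE-MP chow without overlap. Cfd (1 of 5 adipocyte genes) and Cd79a (1 of 5 lymphocyte genes) were lower under PE-MP chow without overlap. The share of all genes lower without overlap on this scale was not computed, so nothing is read from these genes. The share of Rn18s-rs5, a row of ribosomal RNA, was 5.98%, 3.10% and 0.334% in PE-MP chow libraries 1, 2 and 3 and 2.92%, 11.2% and 1.15% in normal chow libraries 1, 2 and 3. The part of these shifts in the values below was not tested.

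Together the 8 copies took a large part of each library. Their summed share was 2.53%, 2.48% and 2.77% of all counts in PE-MP chow libraries 1, 2 and 3, and 4.40%, 4.19% and 4.59% in normal chow libraries 1, 2 and 3. The means were 2.60% ± 0.155 under PE-MP chow and 4.39% ± 0.197 under normal chow (SD, n = 3 per chow), a ratio of 0.591. Every PE-MP chow library was below every normal chow library. The 13 mitochondrially encoded mRNAs had 8.91% ± 0.279 under PE-MP chow and 14.6% ± 0.446 under normal chow (SD, n = 3 per chow), a ratio of 0.610.

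The copies also held most of what the table assigned to pseudogenes. Of 12645 rows that GENCODE M21 types as pseudogenes, the 8 copies held 84.9% ± 0.897 of the counts under PE-MP chow and 91.1% ± 1.20 under normal chow (SD, n = 3 per chow). The other 12637 pseudogene rows took 0.463% ± 0.0522 of all counts under PE-MP chow and 0.433% ± 0.0724 under normal chow, and there the chows overlapped (0.415% to 0.519% against 0.357% to 0.501%). By mean share, Gm10925 ranked 12 among all rows of the table under PE-MP chow and 10 under normal chow, and Gm13341, the lowest of the 8, ranked 811 and 424.

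**Figure D1:**
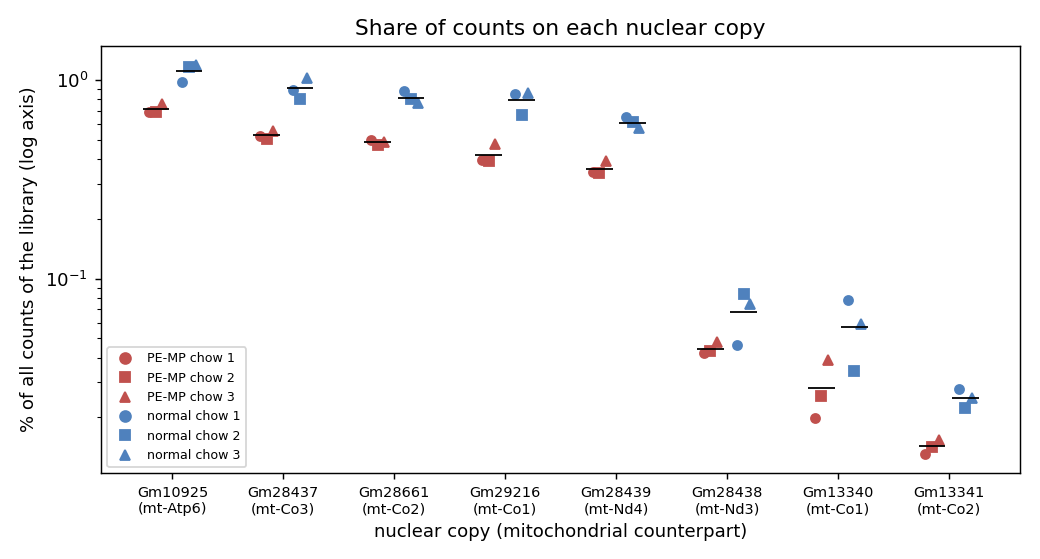
Percent of all counts of a library (log axis) on each of the 8 nuclear copies, with the mitochondrial counterpart in brackets. Symbols are single libraries, 3 per chow, and lines are means of a chow; the 5 copies on the left lie between 0.340% and 1.19%, and the other 3, Gm28438 and both chromosome 2 copies, at or below 0.0833%.

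Among the copies of cytochrome c oxidase genes, Gm28661, the identical copy of mt-Co2, had 0.5002%, 0.472% and 0.490% of the counts in PE-MP chow libraries 1, 2 and 3, and 0.880%, 0.801% and 0.771% in normal chow libraries 1, 2 and 3. Gm28437, the identical copy of mt-Co3, had 0.524%, 0.504% and 0.553% in the PE-MP chow libraries and 0.895%, 0.803% and 1.03% in the normal chow libraries. Gm29216, which copies the last part of mt-Co1, the catalytic subunit, had 0.397%, 0.393% and 0.475% in the PE-MP chow libraries and 0.848%, 0.666% and 0.865% in the normal chow libraries. For all 3 genes the PE-MP chow libraries lay below the normal chow libraries without overlap. The share of all genes lower without overlap on this scale of total counts is not given here, for these or the other copies. With counts scaled by TMM factors, 8 of 8 copies and 11.8% of all genes tested were lower without overlap. The log2 fold changes of the 3 genes (PE-MP chow over normal chow, edgeR on counts scaled by TMM factors, ± SE) were -1.05 ± 0.12 for Gm28661, -1.09 ± 0.14 for Gm28437 and -1.21 ± 0.14 for Gm29216.

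The chromosome 2 copies were far less counted than the chromosome 1 copies of the same genes. Gm13341 had 0.0131%, 0.0142% and 0.0154% of the counts in PE-MP chow libraries 1, 2 and 3, and 0.0279%, 0.0223% and 0.0250% in normal chow libraries 1, 2 and 3. Gm13340 had 0.0198%, 0.0256% and 0.0388% in the PE-MP chow libraries and 0.0779%, 0.0343% and 0.0594% in the normal chow libraries. For Gm13341 the chows did not overlap, whereas for Gm13340 PE-MP chow library 3 stood above normal chow library 2 on this scale of total counts. Log2 fold changes were -1.12 ± 0.12 for Gm13341 and -1.33 ± 0.33 for Gm13340 (SE). Per kilobase of transcript, Gm28661 stood at 7157 CPM of total counts against 212 for Gm13341 under PE-MP chow, and at 11999 against 373 under normal chow.

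Gm10925, the identical copy of mt-Atp6, was the most counted of the 8. It had 0.691%, 0.689% and 0.762% of the counts in PE-MP chow libraries 1, 2 and 3, and 0.976%, 1.17% and 1.19% in normal chow libraries 1, 2 and 3, with a log2 fold change of -0.94 ± 0.14 (SE). Its chows did not overlap.

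Of the copies of complex I genes, Gm28439 had 0.346%, 0.340% and 0.390% of the counts in PE-MP chow libraries 1, 2 and 3, and 0.650%, 0.613% and 0.573% in normal chow libraries 1, 2 and 3, with a log2 fold change of -1.08 ± 0.12 (SE) and no overlap. Gm28438, the copy of mt-Nd3, had 0.0419%, 0.0431% and 0.0478% in the PE-MP chow libraries and 0.0464%, 0.0833% and 0.0747% in the normal chow libraries. On this scale normal chow library 1 lay among the PE-MP chow libraries, and the log2 fold change was -0.93 ± 0.23 (SE). The counterpart mt-Nd3 showed the same spread, with 0.0444%, 0.0804% and 0.0721% in normal chow libraries 1, 2 and 3.

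Across all genes, the edgeR quasi-likelihood test with Benjamini-Hochberg adjustment passed 0 of 18043 genes downwards at an adjusted p of 0.05 (0%) and 1 upwards (0.00554%), and 0 of the 8 copies passed. The unadjusted p was under 0.05 for 3233 genes, among them all 8 copies. DESeq2 passed 8 of the 8 copies downwards, against 3.48% of all genes, and limma-voom 4 of 8, against 0.0499%. With edgeR, 5 of 8 passed downwards at an adjusted p of 0.1, against 0.161% of all genes, and 7 of 8 at 0.05 without normal chow library 2, against 3.27%. With counts scaled by TMM factors, 8 of 8 copies were lower in every PE-MP chow library than in any normal chow library, against 11.8% of all genes tested. Nothing is read from these counts, because the copies were chosen on this difference. The median log2 fold change was -1.08 over the 8 copies and 0.02 over all genes tested. In bulk RNA, fewer cells of a type and less of an RNA per cell cannot be told apart.

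Of the 37 mitochondrially encoded genes, 31 were tested, 0 of which passed the edgeR threshold in either direction. An unadjusted edgeR p under 0.05 was found for 27 of them, against 3233 of all 18043 genes tested. DESeq2 passed 25 downwards (3.48% of all genes) and limma-voom 3 (0.0499%). All 31 had a negative log2 fold change, as had 8721 of all 18043 genes tested. The 31 genes had a median of -1.09 and a range from -1.94 to -0.16. For the 13 mRNAs among them the median was -1.02 (from -1.69 to -0.68). The 8 copies, between -1.33 and -0.93, lay within that range.

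Set beside its counterpart, each copy had nearly the same fold change in every pair but that of mt-Nd4. The error of mt-Nd4 (-1.56 ± 0.94, SE) was too wide to tell its fold change from that of Gm28439 (-1.08 ± 0.12). Gm28661 had a log2 fold change of -1.05 and mt-Co2 also -1.05, Gm28437 had -1.09 and mt-Co3 -1.09, and Gm28438 had -0.93 and mt-Nd3 -0.94. Gm10925 and mt-Atp6 (-1.02 ± 0.13) and Gm29216 and mt-Co1 (-1.16 ± 0.13) differed by less than their SE. Gm13341 and Gm13340, the diverged copies, lay at -1.12 and -1.33 beside -1.05 and -1.16 for mt-Co2 and mt-Co1, again within the SE of each copy.

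**Figure D2:**
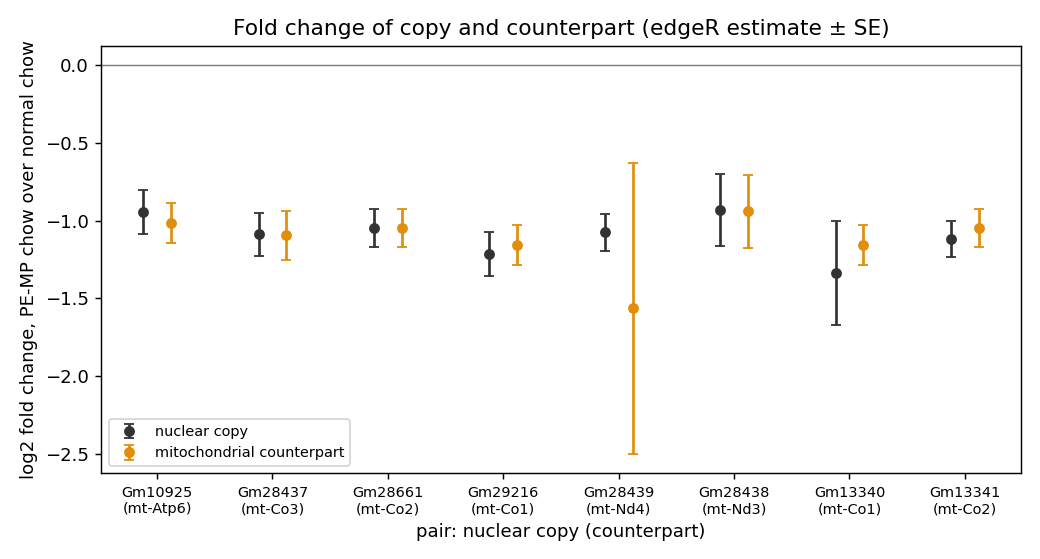
Log2 fold change of PE-MP chow over normal chow (edgeR estimate, bars are SE, 3 libraries per chow) for each nuclear copy and its mitochondrial counterpart. Copy and counterpart lie close together in 7 pairs, while mt-Nd4 (-1.56 ± 0.94) has a far wider error than Gm28439 (-1.08 ± 0.12).

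The ratio of counts between copy and counterpart within a library does not depend on depth or scaling, and for some pairs it was nearly fixed. Gm28661 had 0.997, 0.997 and 0.995 counts for each count of mt-Co2 in PE-MP chow libraries 1, 2 and 3, and 0.997, 0.994 and 0.995 in normal chow libraries 1, 2 and 3. Over the 6 libraries the highest of these ratios was 1.003 times the lowest, although mt-Co2 itself ran from 356146 to 872530 counts. Gm28438 had ratios to mt-Nd3 of 1.03, 1.06 and 1.04 in the PE-MP chow libraries and 1.04, 1.04 and 1.04 in the normal chow libraries. In both pairs the copy carried about as many counts as the mitochondrial gene.

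Full identity did not always go with a ratio of 1. Gm10925 had 1.51, 1.66 and 1.64 counts for each count of mt-Atp6 in PE-MP chow libraries 1, 2 and 3, and 1.44, 1.56 and 1.55 in normal chow libraries 1, 2 and 3. Gm28437 had 1.82, 1.73 and 1.72 counts for each count of mt-Co3 in the PE-MP chow libraries and 1.71, 1.90 and 1.67 in the normal chow libraries. These copies were thus assigned more counts than the genes they copy, in all 6 libraries, and the chows overlapped. Gm29216, which covers the last 483 of the 1545 bases of mt-Co1, had 0.152, 0.155 and 0.172 in the PE-MP chow libraries and 0.168, 0.155 and 0.174 in the normal chow libraries. Per base of transcript these ratios were 0.477 to 0.540 under PE-MP chow and 0.486 to 0.545 under normal chow.

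The diverged copies had low ratios. Gm13341 had 0.0260, 0.0301 and 0.0314 counts for each count of mt-Co2 in PE-MP chow libraries 1, 2 and 3, and 0.0316, 0.0277 and 0.0322 in normal chow libraries 1, 2 and 3. For Gm13340 and mt-Co1 the ratios were 0.00758, 0.0101 and 0.0140 in the PE-MP chow libraries and 0.0154, 0.00798 and 0.0119 in the normal chow libraries. The ratio of Gm13340 thus differed 2.03-fold between the highest and the lowest library, that of Gm13341 1.24-fold, and the spread lay within each chow.

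**Figure D3:**
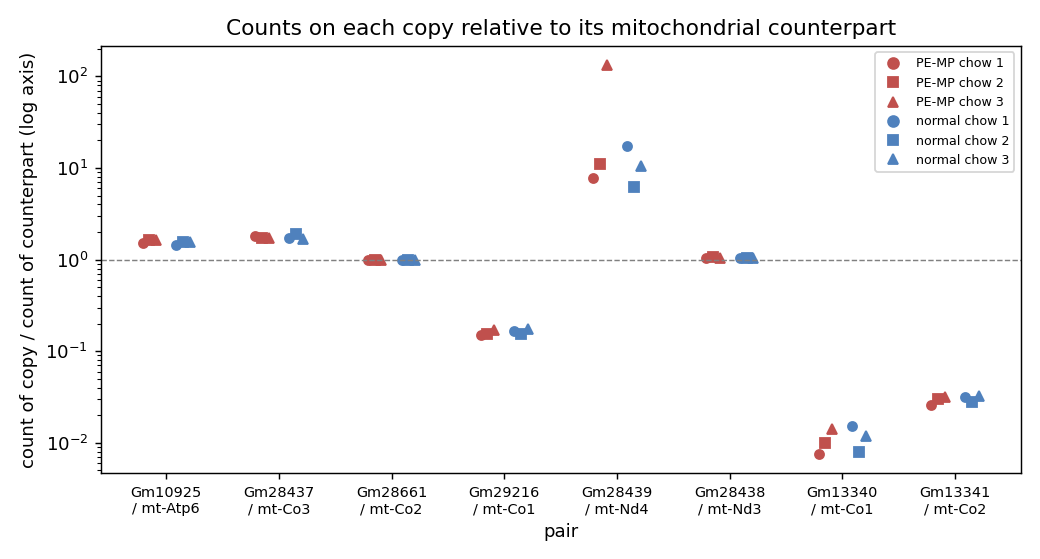
Count of each nuclear copy divided by the count of its mitochondrial counterpart (log axis) in 3 PE-MP chow and 3 normal chow libraries; the dashed line marks equal counts. Chows overlap in all 8 pairs, Gm28661 and Gm28438 sit on the line, and Gm28439 runs from 6.20 to 132.

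Summed over the 8 copies and their 6 distinct counterparts, the copies held 39.1%, 39.6% and 40.4% of the counts of both in PE-MP chow libraries 1, 2 and 3, and 37.9%, 39.4% and 38.7% in normal chow libraries 1, 2 and 3. The log2 ratio of copies to counterparts was -0.60 ± 0.04 under PE-MP chow and -0.67 ± 0.05 under normal chow (SD, n = 3 per chow), a difference of 0.06 with overlapping libraries. Against the sum of all 13 mitochondrial mRNAs the difference was -0.05, so its sign depends on the genes chosen for the comparison.

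The pair of mt-Nd4 and Gm28439 stood apart from the other pairs. The mitochondrial gene mt-Nd4, a membrane subunit of complex I, had 38996, 23173 and 2717 counts in PE-MP chow libraries 1, 2 and 3, and 28480, 67595 and 60698 in normal chow libraries 1, 2 and 3. Its copy Gm28439, which has the letters of the first 876 bases and lacks the rest, had 305348, 255463 and 357950 counts in the PE-MP chow libraries and 493083, 419348 and 644828 in the normal chow libraries. Ratios of Gm28439 to mt-Nd4 were therefore 7.83, 11.0 and 132 in the PE-MP chow libraries and 17.3, 6.20 and 10.6 in the normal chow libraries, with PE-MP chow library 3 the highest. In that library mt-Nd4 was lowest and Gm28439 was not.

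Most counts of the pair stood on the copy, from 86.1% to 99.2% over the 6 libraries, so the values of the sum are close to those of Gm28439. Gm28439 and mt-Nd4 together took 0.390%, 0.371% and 0.392% of all counts in PE-MP chow libraries 1, 2 and 3, and 0.687%, 0.712% and 0.627% in normal chow libraries 1, 2 and 3. With the counts of each copy added to its counterpart, the log2 fold change of mt-Nd4 was -1.12 ± 0.13, against -1.08 ± 0.12 for Gm28439 alone and -1.56 ± 0.94 for mt-Nd4 alone (SE). For the other counterparts, adding the copies left the log2 fold change at -0.97 for mt-Atp6, -1.17 for mt-Co1, -1.05 for mt-Co2, -1.09 for mt-Co3 and -0.94 for mt-Nd3. This sum was chosen after the values of mt-Nd4 had been seen.

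The neighbour mt-Nd4l, which is carried on the same mitochondrial mRNA as mt-Nd4, gives a further yardstick. Gm28439 had 0.473, 0.491 and 0.479 counts for each count of mt-Nd4l in PE-MP chow libraries 1, 2 and 3, and 0.487, 0.479 and 0.443 in normal chow libraries 1, 2 and 3. The ratio of mt-Nd4 to mt-Nd4l ran from 0.00364 to 0.0605 in the PE-MP chow libraries and from 0.0281 to 0.0773 in the normal chow libraries. It thus differed 21.2-fold over the 6 libraries, whereas that of the nuclear copy differed 1.11-fold.

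**Figure D4:**
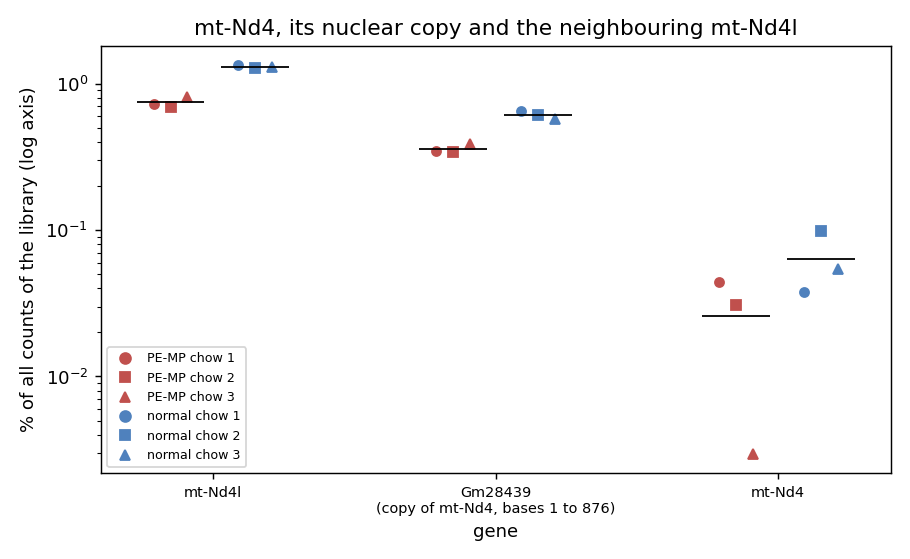
Percent of all counts of a library (log axis) on mt-Nd4l, on the nuclear copy Gm28439 and on mt-Nd4, for 3 PE-MP chow and 3 normal chow libraries with the mean of each chow as a line. Libraries of a chow lie close together for mt-Nd4l and Gm28439 and spread for mt-Nd4, down to 0.00296% in PE-MP chow library 3.

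A search of all GENCODE M21 transcripts for other nuclear genes with at least 80% identity to a mitochondrial gene, over at least 100 bases and 0.5 of the transcript, found 18 more that were rows of the table. Together these took 0.00489% ± 0.000835 of all counts under PE-MP chow and 0.00768% ± 0.00119 under normal chow (SD, n = 3 per chow). Gm13339, a copy of mt-Nd2 (a complex I subunit) in the same chromosome 2 run as Gm13340, had 3405, 3225 and 4720 counts in PE-MP chow libraries 1, 2 and 3, and 6053, 4310 and 7291 in normal chow libraries 1, 2 and 3. Its identity was 96.7% and its log2 fold change -0.95 ± 0.13 (SE). The next in count were Gm11407 and Gm4076 (copies of mt-Nd5), Gm11408 (mt-Nd6), Gm20594 (mt-Rnr2) and Gm11410 (mt-Cytb), whose totals over the 6 libraries were 1888, 777, 176, 119 and 97. Of the 18 genes 7 were tested, and 0 of them passed the edgeR threshold. An unadjusted edgeR p under 0.05 was found for 5 of the 7, against 3233 of all 18043 genes tested. DESeq2 passed 1 downwards (3.48% of all genes) and limma-voom 0. All 7 had a negative log2 fold change, as had 8721 of all 18043 genes tested. Their median was -1.09, where the 8 copies had -1.08, but they ranged more widely, from -1.95 to -0.12. The ends were Gm11512 (-1.95 ± 0.66, 81 counts in all) and Gm20594 (-0.12 ± 0.44, SE).

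Gm10222 was the exception among the identical copies. It lies between Gm28438 and Gm28439 on chromosome 1 and matches mt-Nd4l without a mismatch over 294 bases, yet it had exactly 1 count in each of the 6 libraries. The counterpart mt-Nd4l had 645000, 520058 and 746875 counts in PE-MP chow libraries 1, 2 and 3, and 1012428, 874768 and 1454981 in normal chow libraries 1, 2 and 3. All but 1 of the counts on this pair thus stood on the mitochondrial gene in every library, whereas in the other pairs of the chromosome 1 run the copy held between 13.8% (Gm29216 with Gm13340, against mt-Co1) and 99.2% (Gm28439) of the counts.

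**Figure D5:**
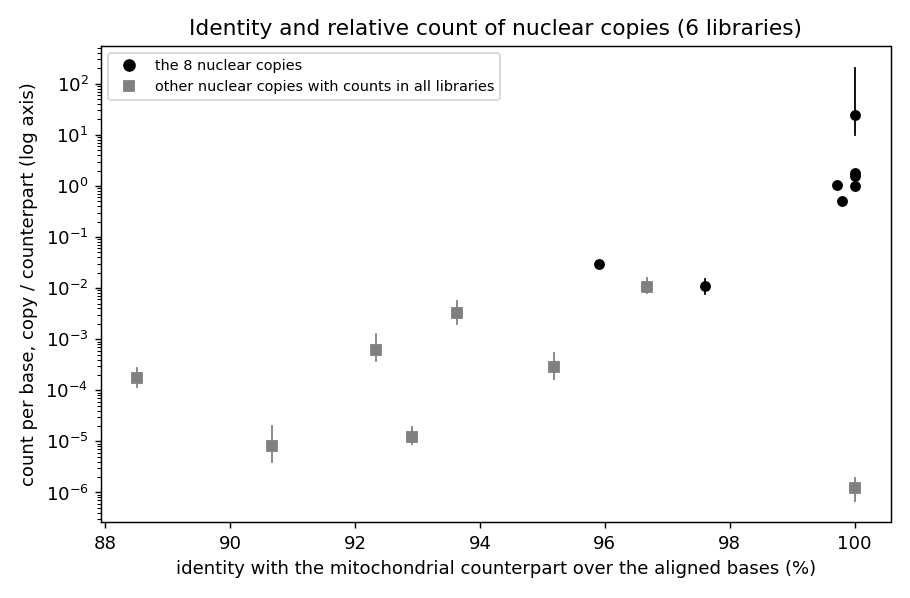
Identity of a nuclear copy with its mitochondrial counterpart (percent of aligned bases) against the ratio of their counts per base (log axis), for the 8 copies and the other copies with counts in all libraries. Points are geometric means of 6 libraries and lines the range. Copies under 99% identity lie far below 1, and the identical copy Gm10222 lies at the bottom right with 1 count per library.

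Outside the copies and the mitochondrially encoded genes, the tested genes whose log2 CPM followed that of the summed copies most closely over the 6 libraries were Gm44264 (Pearson r = 0.998), Knop1 (r = 0.998), Gm13021 (r = 0.996), Retn (r = 0.995) and 9530068E07Rik (r = 0.993). These values rest largely on the difference between chows that all points share, and 587 genes had an r above 0.9. With each chow's mean subtracted, r was 0.731 to 0.950 for these 5 genes, which were picked for a high r over the same libraries. The same measure ran from -0.51 (Gm28439) to 0.903 (Gm28437) over the copies themselves and was -0.47 for Gm28661 and -0.07 for Gm13341, so within a chow the copies did not all follow their own sum. Gm44264 was barely counted, at 0.0632 CPM under PE-MP chow and 0.467 under normal chow, and so was Gm13021, at 0.179 and 0.817. Knop1, which codes for a nucleolar protein, had 32.7 ± 0.461 CPM under PE-MP chow and 44.1 ± 1.40 under normal chow (SD, n = 3 per chow). Retn, the gene of the adipocyte hormone resistin, had 0 counts in all 3 PE-MP chow libraries and 18, 11 and 35 counts in normal chow libraries 1, 2 and 3, so its r within chows rests on these 3 counts.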

How the data were processed

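Liver RNA was measured in 3 PE-MP chow and 3 normal chow libraries. Groups and replicate numbers come from the titles in the labels. The authors deposited raw counts per gene, per the file headers and the whole-number values; the table of the series held the same values as all 6 per-library files. Per the submitters' processing notes, bcl2fastq and build GRCm39 were used. Not given in the sources used here are the aligner, counter, annotation release, strand setting and treatment of reads with several matches. The labels name separate libraries, so p-values cover only their spread, which may be technical.

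The test on counts was that of edgeR 4.0.16, run in R 4.3.3 (quasi-likelihood F test, robust, TMM factors, default expression filter, 18043 genes, two-sided, Benjamini-Hochberg, threshold 0.05). CPM values and shares were computed here from the deposited counts. The fit was tested on simulated counts. Copies were aligned to mitochondrial transcripts of GENCODE M21 with blastn 2.17.0, and counterparts were the genes with most identical bases. The members and lists were chosen with earlier results of these data known. Named genes are the 8 copies, their counterparts, mt-Nd4l, Myo3a, the 6 other copies with most counts, the 5 genes most alike by r, markers and ribosomal RNA; mt-Nd4l, Myo3a, Gm10222 and the pair sum of mt-Nd4 were added after their values were seen. Alternatives were RLE and upper-quartile factors, TMM without rows over 1% of a library, DESeq2 1.42.0, limma-voom (limma 3.58.1), no filter, a stricter filter (CPM 1 or more throughout a chow), leaving out single libraries, a block for the replicate number, a threshold of 0.1, and other denominators and counterparts.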

Additional observations from a re-analysis of the deposited data

How the results depend on the processing

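The log2 fold change of each of the 8 copies stayed negative and within the spread between replicates in all 112 values under 14 alternatives, from -1.59 to -0.75. The median over the copies ran from -1.11 to -1.05 with all 8. It was -1.06 over the chromosome 1 copies and -1.23 over the chromosome 2 copies. None of these alternatives scaled by total counts alone. The TMM factors differed by chow, at 0.880 to 0.923 in the normal chow libraries and 1.07 to 1.17 in the PE-MP chow libraries. Fold changes of the copies on scaled counts are therefore larger in size than on total counts, where their summed share had a ratio of 0.591. The count of genes called was 1 (edgeR) and became 53 at an adjusted p of 0.1, 3 with RLE factors, 1186 with DESeq2, 15 with limma-voom, 23 with no filter and 22 with the stricter filter. Leaving out 1 library gave 1 to 1075 calls, the highest without normal chow library 2, where 7 of the 8 copies passed (3.27% of all genes passed downwards); at an adjusted p of 0.1 it was 5 of 8 (0.161%). With the replicate number as a block 0 genes were called, at 2848 with an unadjusted p under 0.05. Deviations from the chow mean correlated at 0.0027, 0.0405 and 0.136 between libraries with the same number, and from -0.148 to 0.120 between the others. With 3 libraries per chow, these values cannot decide whether libraries with the same number were paired. Under the block the median over the copies was -1.08. Calls among mitochondrially encoded genes went from 0 to 6 at an adjusted p of 0.1, 25 with DESeq2, 3 with limma-voom, 1 with no filter, 3 with the stricter filter and, leaving out 1 library, 0 to 16, the highest without normal chow library 2. Calls among other nuclear copies went from 0 to 1 at an adjusted p of 0.1 and with DESeq2, and were 0 to 1 leaving out 1 library. The difference in the summed share of the copies, PE-MP chow minus normal chow, was -1.80 percentage points, -2.54 with mitochondrial and copy rows out of the total, -1.98 with ribosomal RNA rows out, and -1.90 to -1.70 leaving out 1 library. The log2 ratio of copies to counterparts differed by 0.06 between chows, by -0.046 against the 13 mRNAs, by 0.0045 as the median over copies, and by 0.04 to 0.09 leaving out 1 library. Where calls changed, the cause was not tested. Depth does not limit the copies, the least counted of which had 10703 counts in its lowest library; precision is set by 3 libraries per chow.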

Other observations

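The counts of diverged nuclear copies relative to their counterparts differed between libraries in a shared order that crossed the chows. There were 9 copies under 99% identity with counts in all 6 libraries, 2 of them among the 8 copies (Gm13340 and Gm13341). Among the PE-MP chow libraries the ratio of copy to counterpart was lowest in library 1 for 7 of the 9 and highest in library 3 for 8. Among the normal chow libraries it was lowest in library 2 for 8 of the 9 and highest in library 1 for 7. Gm13339 had ratios to mt-Nd2 of 0.00388, 0.00451 and 0.00554 in PE-MP chow libraries 1, 2 and 3, and of 0.00759, 0.00434 and 0.00530 in normal chow libraries 1, 2 and 3. The libraries with the lowest ratios were those with the highest share of Rn18s-rs5 in their chow (5.98% in PE-MP chow library 1 and 11.2% in normal chow library 2). At the other end, PE-MP chow library 3 had the lowest share of its chow (0.334%), but normal chow library 1 (2.92%) did not, since library 3 had 1.15%. The order was noticed in these data, 5 of the 9 copies had at most 777 counts in all, 4 pairs share a counterpart with another pair, and the part of ribosomal RNA in it was not tested.

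Exactly 1 count in each of the 6 libraries was found on 223 of 56674 rows, among them Gm10222 and 4 mitochondrially encoded genes (the tRNA genes mt-Ti, mt-Tl2, mt-Tq and mt-Tw).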
